A study of Ictidomys tridecemlineatus with 5 samples.

Results

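The subunits of the mitochondrial respiratory chain and of ATP synthase were compared between eye and retina of the thirteen-lined ground squirrel, Ictidomys tridecemlineatus. Members were all Swiss-Prot names whose hit description opened with NADH dehydrogenase [ubiquinone], NADH-ubiquinone oxidoreductase, Cytochrome b-c1 complex, Cytochrome c oxidase subunit, Succinate dehydrogenase or ATP synthase subunit, together with cytochrome b. This rule found 100 of the 15938 names in either table, 88 encoded in the nucleus and 12 in the mitochondrial genome. A name is the part of a Swiss-Prot entry before its species code, so hits to the same protein of different animals share a name. The 100 names stand for 96 distinct genes, including assembly factors whose descriptions open with the same words.

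RNA was sequenced from 2 eye and 3 retina libraries of wild type animals (strain WT), and each library was prepared from RNA pooled from 4 animals. The labels do not say whether the libraries of a tissue came from separate animals, nor whether the eye tissue still held its retina. The libraries of a tissue share 1 value per transcript, so every difference below lacks a replicate check, and no SD or p-value can be given. The libraries are tissue mixtures, and fewer cells of a type cannot be told apart from less RNA per cell.

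The respiratory chain sits in the inner mitochondrial membrane. Complexes I and II pass electrons from NADH and succinate to ubiquinone, complex III passes them on to cytochrome c, and complex IV hands them to oxygen. Complexes I, III and IV pump protons across the membrane, and ATP synthase, also called complex V, uses the returning protons to make ATP. Complexes I, III, IV and V mix subunits of the mitochondrial genome with nuclear-encoded ones, whereas complex II is wholly nuclear encoded. Some complex IV subunits exist as pairs of isoforms, one found broadly and the other mainly in heart and skeletal muscle, lung or testis. Photoreceptors hold dense mitochondria in their inner segments, and extraocular muscle is also rich in mitochondria.

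The level of a member is the RPKM, read counts divided by transcript length and by the read total, of its highest transcript, and a difference is log2(eye RPKM + 1) minus log2(retina RPKM + 1), which understates the change of low genes. The scaling of the deposited values corresponds to 264219334 reads in eye and 355988270 in retina. The median half-width of the 95% counting interval of a member's difference was 0.025 and the widest was 0.12, for counting error only. Marker names fitted the tissue labels. Photoreceptor names (3 of 6 found) summed to 2346 RPKM in eye against 4707 in retina. Photoreceptor RNA was thus present in the eye libraries too, and every comparison sets such a mixture against retina. Lens names summed to 9651 and 27.1 RPKM, corneal keratins to 3952 and 1.96, pigment cell names to 277 and 10.9, hemoglobins to 8839 and 256, and skeletal muscle names to 1077 and 78.5.

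Of the 100 names, 94 were in both tables, and all 94 reached the filter of 1 RPKM in either tissue. SDHAF2, an assembly factor of complex II, was in the eye table only, at 45.4 RPKM. The eye table alone also held a second name of ATP5F1A, a pig entry, at 244 RPKM on a transcript of 521 bases, and a second name of COX6C at 1.20 RPKM. Only the retina table held COX7B2, a subunit of complex IV, at 0.431 RPKM. The other 2 names were hit only through entries of organisms other than animals and were left out. Of the 82 nuclear-encoded members compared, 65 had a higher value in eye and 17 in retina, with a median difference of 0.24.

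At least 2-fold higher in eye were 14 of the 94 members, or 14.9%, beside 11.8% of the 13383 proteins compared. At least 2-fold higher in retina was 1 member, or 1.06%, beside 3.6% of all proteins. The remaining 79 members lay within 2-fold. The share of members higher in eye thus stood near that of all proteins. The 2-fold limit marks size only. The median over all proteins was -0.0035. When both tissues were rescaled to an equal total of RPKM, that median moved to -0.25 and the nuclear-encoded members' median to -0.030, with 38 members above 0 and 44 below, so the direction of their median depended on the scaling. On that scale 9 members were at least 2-fold higher in eye, beside 8.96% of all proteins, and 3 in retina, beside 6.74%.

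**Figure D1:**
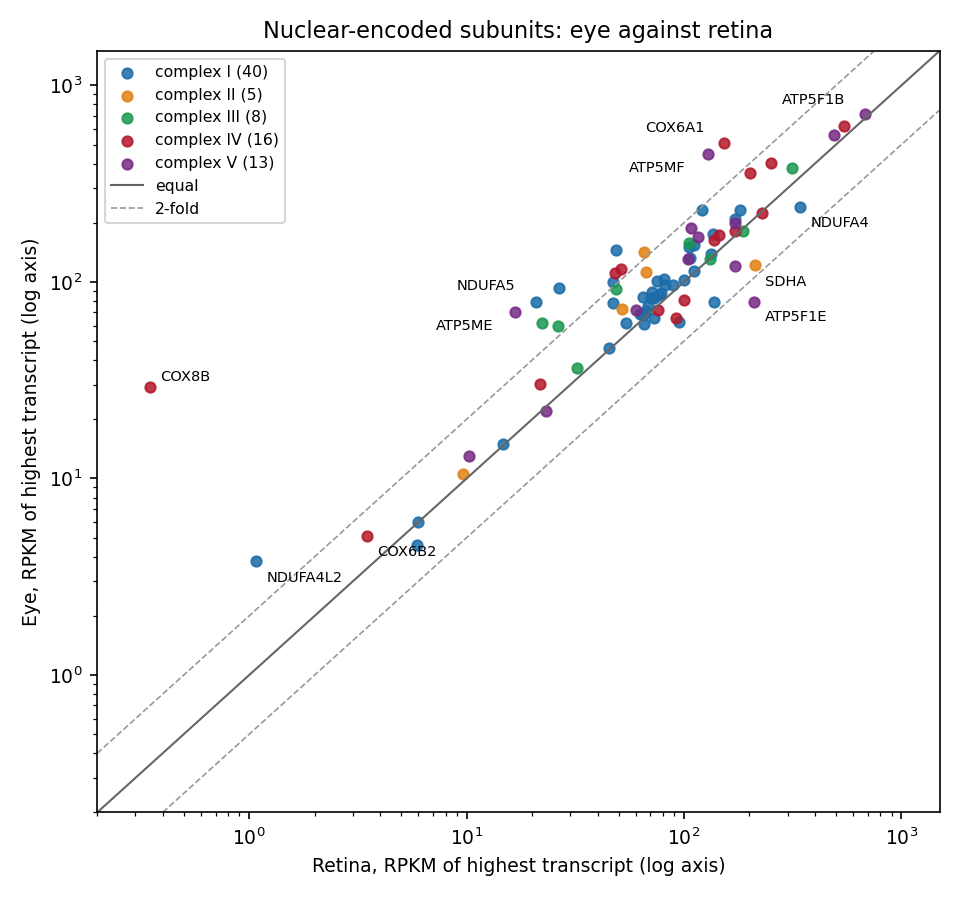
Level of each of the 82 nuclear-encoded members in eye (vertical) and retina (horizontal), as RPKM of the highest transcript on log axes, with 1 point per member coloured by complex, a line of equality and dashed lines at 2-fold. Most points lie close to the line of equality; COX8B is far above it at 29.2 against 0.349 RPKM, and ATP5F1E is the 1 point beyond the lower dashed line.

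Complex I had 40 nuclear-encoded names in both tables, with a median level of 86.5 RPKM in eye against 72.6 in retina. The median difference was 0.19, and -0.087 after rescaling to equal totals. The 7 core subunits, which carry the flavin and the iron-sulphur clusters, lay close in the tissues. NDUFV1, which holds the flavin, stood at 139 RPKM in eye against 132 in retina, and NDUFS1, the largest of the iron-sulphur subunits, at 46.1 and 45.4. NDUFS7, which holds an iron-sulphur cluster, was at 151 and 106, and NDUFV2 at 85.5 and 77.1. All 7 had a slightly higher value in eye, by 0.023 to 0.51, and none passed 2-fold. After rescaling to equal totals, 6 of the 7 had the lower value in eye.

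Among the accessory subunits of complex I, which surround the core, differences reached further. Of 30 such names, 25 had the higher value in eye, with a median difference of 0.30 (0.021 after rescaling), and 5 were at least 2-fold higher there. The most abundant name was NDUFA4, found with complex I by its deposited description although it is now seen as a component of complex IV. It stood at 242 RPKM in eye against 340 in retina. NDUFA11 was at 232 and 121 RPKM, NDUFB8 at 232 and 181, and NDUFA13 at 209 and 171, so 3 of these 4 had the higher value in eye. On the best-matching transcripts NDUFA11 stood at 2.26 and 121 RPKM, NDUFB8 at 134 and 180.0, and NDUFA4 at 102 and 340, so 1 of the 4, NDUFA13, was then higher in eye. The 11 NDUFB names, subunits of the membrane arm, ranged from 61.3 to 232 RPKM in eye and from 26.5 to 181 in retina, and 10 of them had the higher value in eye, with a median difference of 0.36 (0.083 after rescaling, with 6 of 11).

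NDUFA5 and NDUFB6, accessory subunits, showed the largest complex I differences toward eye. NDUFA5 was at 79.0 RPKM in eye against 20.8 in retina, a difference of 1.87. NDUFB6 was at 93.1 and 26.5 RPKM, a difference of 1.77. The eye and retina transcripts were of unequal length, 1605 and 3004 bases for NDUFA5 and 672 and 2519 for NDUFB6. Without division by length, in RPM (reads scaled to the read total only), NDUFA5 stood at 127 and 62.6 and NDUFB6 at 62.6 and 66.8, so the NDUFB6 difference was not seen on that scale. NDUFB9 (145 and 48.5 RPKM), NDUFC1 (99.7 and 47.2) and NDUFA4L2 (3.79 and 1.08) were the other complex I names past 2-fold.

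Toward retina the largest differences in complex I were those of NDUFS5, at 79.1 RPKM in eye against 137 in retina, and NDUFC2, at 62.4 and 94.8. Both are accessory subunits, and both stayed within 2-fold. The NDUFS5 transcripts had 884 and 450 bases, and in RPM NDUFS5 stood at 69.9 and 61.8, then higher in eye. NDUFC2 stood at 75.1 and 92.6 RPM, still higher in retina. The 3 assembly factors placed with complex I by description, which help build it and are not part of the finished enzyme, were low. NDUFAF3, NDUFAF4 and NDUFAF5 ranged from 4.58 to 14.9 RPKM in eye and from 5.94 to 14.7 in retina, with differences between -0.31 and 0.023. Over all complexes the 7 assembly factors compared had a median difference of -0.0018, beside 0.19 for the 17 core and 0.30 for the 58 accessory members, with no test of these differences. After rescaling to equal totals these medians were -0.24, -0.083 and 0.021, and in RPM they were -0.040, -0.13 and 0.29.

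**Figure D2:**
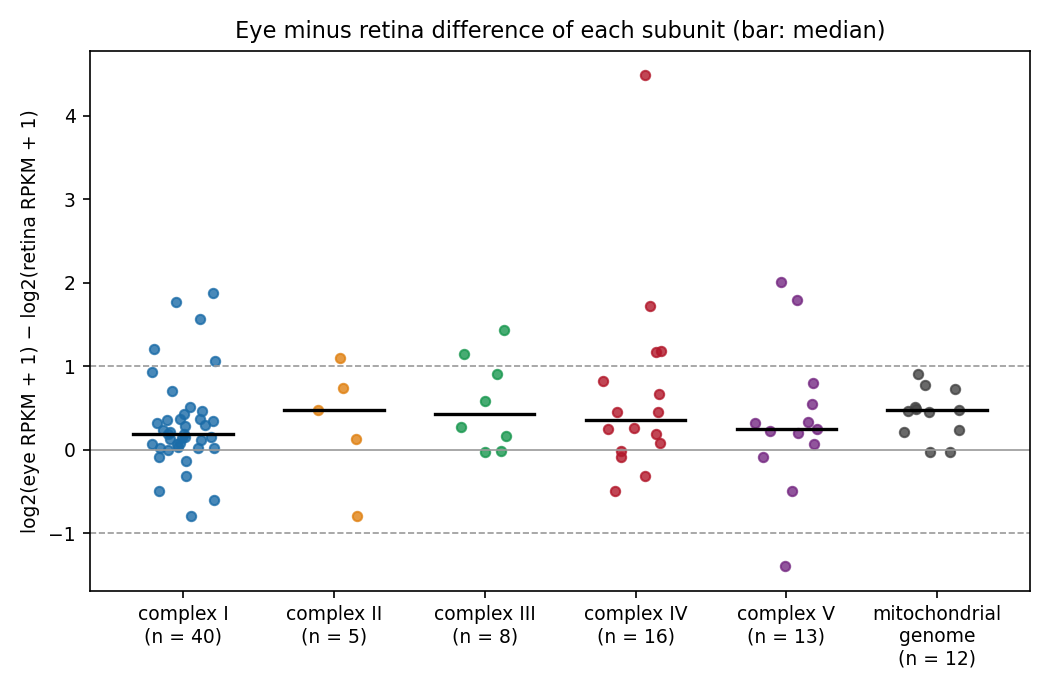
Eye minus retina difference in log2(RPKM + 1) for every member in both tables, by complex for nuclear-encoded members and together for the mitochondrial genome, with 1 point per member, black bars at group medians and dashed lines at 2-fold. Most points of each group lie between the dashed lines, and medians run from 0.19 in complex I to 0.47 in complex II and the mitochondrial genome; after rescaling to equal totals those of complexes I and V fall below 0.

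Complex II, which oxidises succinate in the citrate cycle and feeds the electrons into the chain, showed a split in RPKM among its 4 subunits. SDHA, the flavoprotein that binds succinate, was at 122 RPKM in eye against 212 in retina. SDHB, the iron-sulphur subunit, was at 141 and 65.6 RPKM, SDHC at 112 and 66.7, and SDHD at 72.6 and 51.9. SDHC and SDHD anchor the enzyme in the membrane. Thus in RPKM SDHA had the higher value in retina and the other 3 in eye. The differences toward eye were 1.10 for SDHB, 0.74 for SDHC and 0.47 for SDHD. The SDHA values came from transcripts of 4345 bases in eye and 922 in retina. With the best-matching transcripts, of 4345 and 4361 bases, SDHA stood at 122 and 132 RPKM. On the same choice SDHB stood at 63.9 and 65.6 RPKM, with transcripts of 2492 and 2809 bases, so neither passed 2-fold. The retina transcript of SDHC had 3.26-fold the length of the eye one. In RPM, SDHC stood at 74.9 and 145.5, then higher in retina, and SDHA at 530 and 196, then higher in eye. SDHB, at 274 and 184 RPM, and SDHD, at 83.1 and 66.4, stayed higher in eye. The directions of SDHA and SDHC thus depended on the division by length.

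In complex III the most abundant nuclear-encoded names were close in the 2 tissues. UQCRH, the hinge protein, was at 380 RPKM in eye against 315 in retina. UQCRC1 and UQCRC2, the large core proteins, were at 182 and 186 RPKM and at 130 and 131 RPKM. UQCR11, a small accessory subunit, was at 158 and 105. By best match, UQCRH stood at 188 and 315 RPKM and UQCR11 at 1.02 and 105, both then further apart and higher in retina. UQCRFS1, the Rieske iron-sulphur protein, and the small subunit UQCR10 were the 2 of 8 names past 2-fold, both toward eye. UQCRFS1 stood at 59.5 and 26.5 RPKM, from transcripts of 556 and 4900 bases, and UQCR10 at 61.6 and 22.3, from 1788 and 2807 bases. In RPM, UQCRFS1 stood at 33.1 and 129.6, then higher in retina, and UQCR10 at 110.1 and 62.5, still higher in eye. UQCRQ and UQCRB, small subunits of the membrane part, were at 92.5 and 48.8 RPKM and at 36.3 and 32.3.

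Complex IV, cytochrome c oxidase, had 16 nuclear-encoded names in both tables, with a median level of 140 RPKM in eye against 119 in retina and a median difference of 0.35 (0.086 after rescaling). COX4I1, its most abundant nuclear-encoded subunit here, was at 622 and 545 RPKM. COX5B, which binds zinc, was at 402 and 252, and COX8A, the broadly found form of the smallest subunit, at 357 and 202. With the best-matching transcripts COX4I1 stood at 82.6 and 545 RPKM and COX8A at 1.74 and 202, both then higher in retina, while COX5B was the same. COX5A was at 163 and 138, COX6B1 at 225 and 228, COX6C at 181 and 171, and COX7C at 174 and 145. The RPKM of these 4 supernumerary subunits was thus near equal, but the transcripts of COX6C had 232 and 630 bases and those of COX7C 1173 and 111. In RPM, COX6C stood at 41.9 and 107.7 and COX7C at 204 and 16.1, and their best-matching eye transcripts were at 25.8 and 25.2 RPKM. COX7B, a further one, was at 111 and 48.4, from transcripts of 604 and 1050 bases. COX6A1 was at 510 RPKM in eye against 153 in retina, a difference of 1.73. The retina value of COX6A1 came from a transcript of 119 bases and the eye value from one of 652. With transcripts of 200 bases or more the values were 510 and 146 RPKM. With the best-matching ones they were 100.2 and 146, so the COX6A1 difference turned with that choice.

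COX8B had the largest difference of all members. This isoform of the smallest complex IV subunit is found mainly in heart and skeletal muscle of rodents. It stood at 29.2 RPKM in eye, from 2955 reads on a transcript of 383 bases, and at 0.349 RPKM in retina, from 47 reads on one of 378 bases. The eye value was 83.6-fold that of retina, with a 95% counting interval of 62.7 to 112 that covers counting error only. Each tissue had 1 COX8B transcript, so another choice of transcript could not change these values. Muscle names also stood higher in eye. Of 9 skeletal muscle names, 9 were in the eye table and 7 in the retina table, and 5 of the 7 compared were at least 2-fold higher in eye. The troponin TNNI2 was at 220 and 1.01 RPKM, the myosin light chain MLRS at 366 and 1.37, and TNNT3 and MYH2 were in the eye table only. ACTN3, at 26.5 and 67.7 RPKM, and MYPC2, at 2.92 and 4.43, had the higher value in retina. Of 4 names of slow and cardiac muscle, 4 were in the eye table, summing to 177 RPKM, and 1 in the retina table, at 1.01 RPKM. The part of muscle tissue in the COX8B difference was not tested.

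The other complex IV isoforms of heart and skeletal muscle did not share the size of this difference. COX6A2 stood at 30.2 RPKM in eye against 21.8 in retina. COX7A1 stood at 80.7 and 100.4 RPKM, the higher value being in retina. COX4I2, known from lung, was at 65.2 and 91.9, and COX6B2, known from testis, at 5.12 and 3.48. None of these 4 passed 2-fold.

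Set against its partner within a tissue, each of these isoforms but COX7A1 was the minor form in both tissues. COX8B made up 7.55% of the summed RPKM of COX8B and COX8A in eye and 0.173% in retina, the log2 ratios being -3.61 and -9.17. With the best-matching transcripts the ratio in eye was 4.07, since COX8A then stood at 1.74 RPKM, so COX8B was the larger of the pair there. COX4I2 made up 9.49% of its pair with COX4I1 in eye and 14.4% in retina. COX6A2 made up 5.60% and 12.4% of its pair with COX6A1, and the log2 ratio of COX6B2 to COX6B1 was -5.46 and -6.03. NDUFA4L2, known to be induced by low oxygen, made up 1.54% and 0.315% of its pair with NDUFA4. The ratio to the partner was thus at least 2-fold higher in eye for 2 of the 6 pairs (COX8B and NDUFA4L2) and at least 2-fold higher in retina for 2 (COX6A2 and COX7A1). With the best-matching transcripts these counts were 5 and 0, and with the length-weighted mean or the median over transcripts the retina count was also 0.

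COX7A1 made up 41.0% of its pair with COX7A2 in eye and 66.3% in retina. COX7A2, the broadly found form, was at 116 and 51.1 RPKM, from transcripts of 553 and 1418 bases. In RPM, not divided by length, COX7A1 stood at 27.8 and 36.7 and COX7A2 at 64.4 and 72.4, so COX7A2 was the larger of the pair in both tissues. By best match, COX7A1 stood at 80.7 and 56.9 RPKM, and COX7A2 differed by -3.22.

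**Figure D3:**
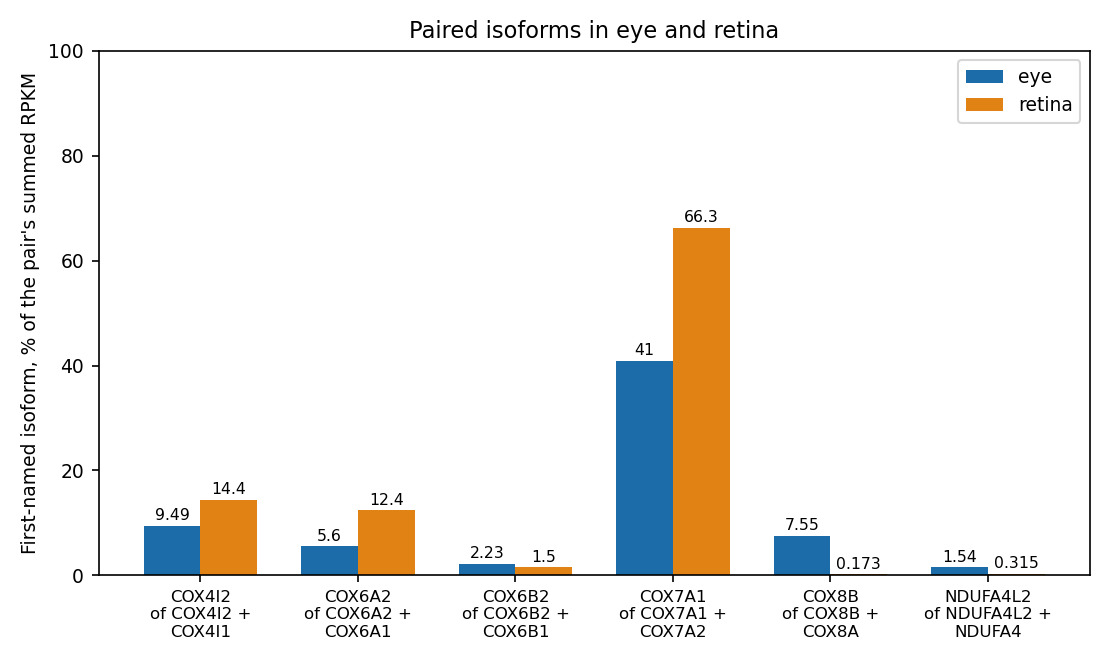
Share of the first-named isoform in the summed RPKM of each of 6 isoform pairs, in percent, with blue bars for eye and orange bars for retina and 1 deposited value per tissue. COX8B is at 7.55% in eye and 0.173% in retina, whereas COX7A1, COX4I2 and COX6A2 have the larger share in retina.

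ATP synthase had 13 nuclear-encoded names in both tables by their deposited descriptions, with a median difference of 0.25 (-0.028 after rescaling). Of these names, 2 (DMAC2 and DMAC2L) were classed as assembly factors and not as subunits, and were placed here by description only. Its catalytic head was abundant and even in RPKM. ATP5F1B, the catalytic beta subunit, was the highest of all nuclear-encoded members, at 711 RPKM in eye against 678 in retina, and ATP5F1A, the alpha subunit, was at 561 and 488. ATP5PO, which joins the head to the outer stalk, was at 200.1 and 171. ATP5F1C, the gamma subunit that turns inside the head, was at 170.2 and 116, and ATP5F1D, the delta subunit beside it, at 131 and 104. Of the outer stalk, ATP5PB was at 71.7 and 60.3 and ATP5PD at 188 and 108. Each of these 7 had a somewhat higher value in eye, and none passed 2-fold. Taken by best match, ATP5PO stood at 6.82 and 171 RPKM and ATP5F1A at 462 and 488, both then higher in retina. In RPM, ATP5F1A stood at 649 and 940, ATP5F1B at 889 and 1014 and ATP5F1C at 117 and 140, all higher in retina. ATP5F1D, ATP5PO, ATP5PB and ATP5PD stayed higher in eye in RPM.

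Small subunits of ATP synthase gave differences in both directions. ATP5F1E, the epsilon subunit of the central stalk, was the 1 member at least 2-fold higher in retina, at 79.3 RPKM in eye against 209.8 in retina, from transcripts of 356 and 472 bases. Each tissue had 1 ATP5F1E transcript, so its difference of -1.39 could not change with the choice of transcript. ATP5MF, ATP5ME and ATP5MG lie in the membrane part, where the enzyme forms dimers. ATP5MF was at 449 and 129 RPKM, ATP5ME at 70.7 and 16.8, and ATP5MG at 121 and 171. In RPKM the first 2 thus had the higher value in eye and the third in retina. The ATP5ME transcripts had 393 and 1616 bases, and in RPM the subunit stood at 27.8 and 27.1, with no difference of that size. ATP5MF had transcripts of 457 and 381 bases, and it stood at 205 and 49.3 RPM. The best match of ATP5MF in eye was another transcript, of 405 bases, at 1.25 RPKM. The ATP5MG transcripts had 451 and 115 bases, and in RPM ATP5MG stood at 54.5 and 19.7, then higher in eye. By best match ATP5MG was at 77.6 and 74.4 RPKM. With transcripts of 200 bases or more it was at 121 and 144, still higher in retina.

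Differences between the tissues moved with the lengths of the assembled transcripts. The nuclear-encoded members' transcripts had a median length of 710.5 bases in eye and 839 in retina. In 20 members the retina transcript was over 1.5-fold longer, and 8 of these were at least 2-fold higher in eye (ATP5ME, COX7A2, COX7B, NDUFA5, NDUFB6, NDUFB9, UQCR10 and UQCRFS1), with a median difference of 0.78. In RPM the same 20 had a median difference of -0.33. In 12 members the eye transcript was over 1.5-fold longer, and 1 of these was at least 2-fold higher in eye (COX6A1). Their median difference was 0.094 in RPKM and 1.26 in RPM. In the 50 members with lengths within 1.5-fold the median difference was 0.22 in RPKM and 0.23 in RPM. For the classes of unequal length the share over all proteins was not counted.

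Across the 82 nuclear-encoded members, the log2 length ratio of eye to retina had a Spearman rho of -0.39 and a Pearson r of -0.27 with the RPKM difference, and of 0.64 and 0.75 with the difference in RPM. Members share the same libraries and assemblies, and length enters both axes. Over all 13383 proteins the Spearman rho with the RPKM difference was 0.0072. Among the 59 members with lengths within 1.5-fold, 5 were at least 2-fold higher in eye (COX8B, ATP5MF, NDUFA4L2, SDHB and NDUFC1), beside 9.12% of 8893 proteins limited in the same way. ATP5F1E was again the 1 member at least 2-fold higher in retina, beside 1.92%. The part of assembly in the differences was not tested beyond these values.

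**Figure D4:**
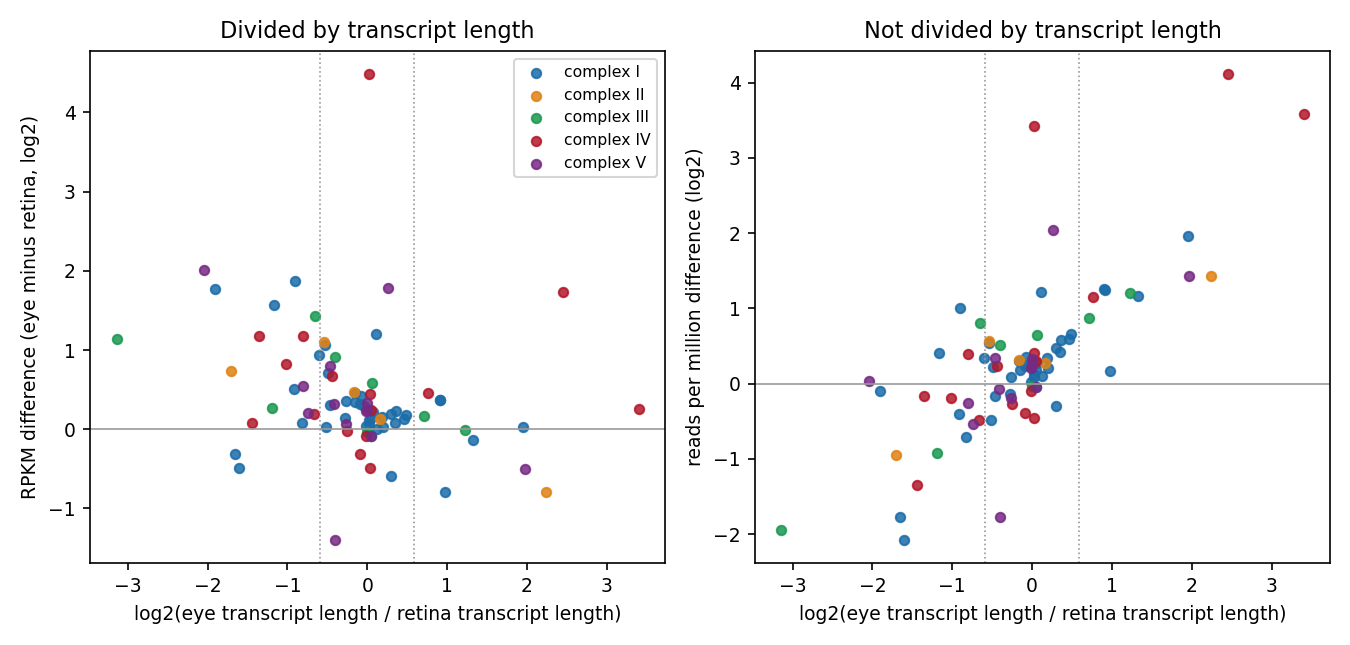
Eye minus retina difference of each of the 82 nuclear-encoded members against the log2 ratio of its transcript lengths, eye over retina, with the difference in RPKM at left and in RPM at right, coloured by complex, and dotted lines at 1.5-fold in length. The points slope down at left and up at right (Spearman rho -0.39 and 0.64), while COX8B stands at a difference of 4.48 with nearly equal lengths.

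The 12 mitochondrially encoded members had a far higher median than the nuclear-encoded ones on the RPKM scale. Their median was 1746 RPKM in eye, 18.2-fold the median of the nuclear-encoded names there, and 1240 RPKM in retina, 16.1-fold. The ranges overlapped, since MT-ND4L, the lowest of the 12, lay below ATP5F1B, at 622 against 711 RPKM in eye and 634 against 678 in retina. MT-ATP6, the proton channel subunit of ATP synthase, was the highest in both tissues, at 6960 and 4209 RPKM. The 3 core subunits of complex IV followed in eye, with MT-CO3 at 5583 and 4043 RPKM, MT-CO2 at 4220 and 3566, and MT-CO1, which holds the oxygen-reducing site, at 2673 and 1423. MT-CYB, the cytochrome b of complex III, was at 1828 and 1313.

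Of the 7 membrane subunits of complex I in the mitochondrial genome, MT-ND2 stood at 1877 and 1366 RPKM, MT-ND1 at 1663 and 1167, MT-ND3 at 1532 and 894, and MT-ND4 at 1381 and 986. MT-ND5 was at 763 and 777, MT-ND6 at 753 and 652, and MT-ND4L at 622 and 634. The order of the 12 levels was thus the same in both tissues but for MT-ND3 and MT-ND4, which changed places, and MT-ND5, MT-ND6 and MT-ND4L were lowest in both. None of the 12 passed 2-fold. A higher value in eye was found for 10, and MT-ND5 and MT-ND4L differed by -0.026 and -0.027. The median difference was 0.47, and 0.19 after rescaling to equal totals, with 8 above 0 and 4 below. MT-CO1, at 0.91, had the largest difference.

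These levels rest on short transcripts. The mitochondrially encoded members had 5051 transcripts in the eye table and 3475 in the retina table, while the nuclear-encoded ones had 395 and 580. The 841 eye transcripts assigned to MT-ATP6 ranged from 944 to 6960 RPKM, with a median of 3507, and 99.6% were under 200 bases. The 690 retina transcripts of MT-ATP6 had a median of 2432 RPKM. The highest transcripts of the 12 members had a median length of 147 bases in eye and 165 in retina, and 10 and 7 of them were under 200 bases. Taking the median over a member's transcripts in place of the highest, 11 of 12 had the higher value in eye. MT-ND6 was the exception at -0.17, and MT-ND3 stood apart at 1.80, from 10 and 13 transcripts. With transcripts of 200 bases or more, 8 of 12 had the higher value in eye, with a median difference of 0.21. On that choice MT-ATP6, at 1.03, was at least 2-fold higher in eye and MT-ND1, at -1.20, in retina.

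**Figure D5:**
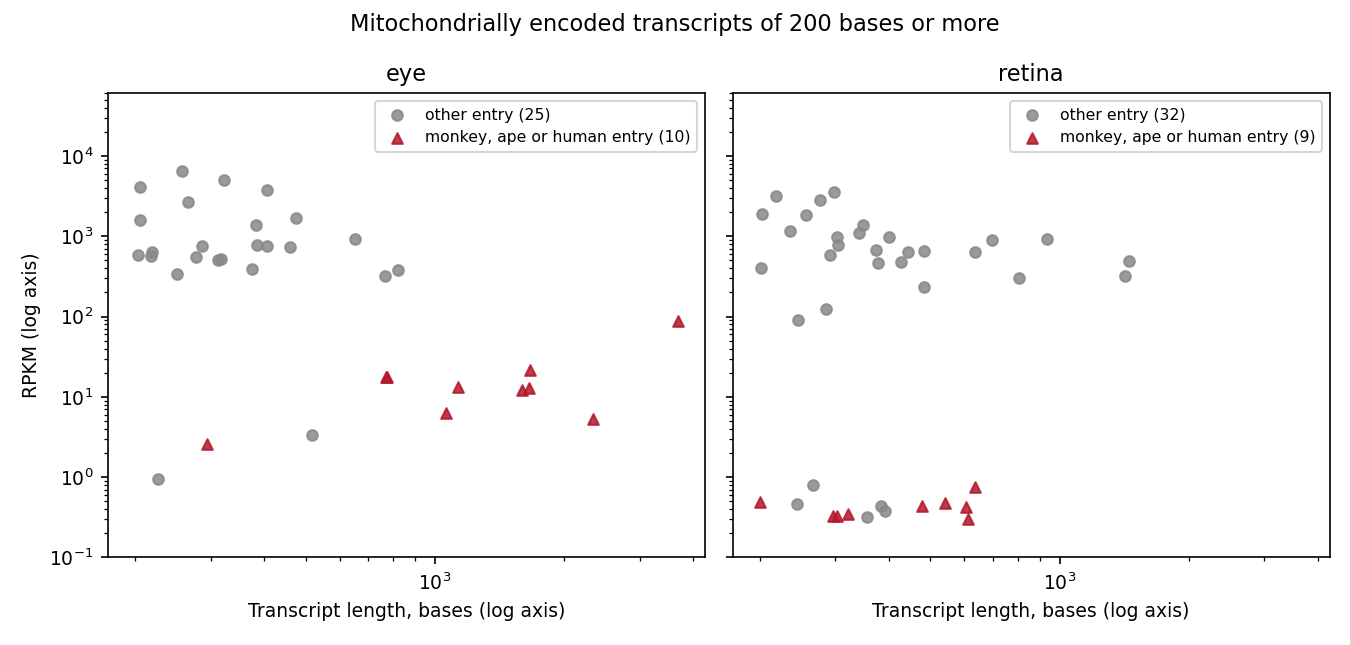
RPKM against length, both on log axes, for mitochondrially encoded transcripts of 200 bases or more in eye (left) and retina (right), with red triangles for best hits to Old World monkey, ape or human entries and grey circles for all others. The triangles lie at 2.62 to 87.2 RPKM in eye and at 0.302 to 0.746 in retina, below most of the circles, and hold the longest eye transcripts.

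Long mitochondrially encoded transcripts covered a wide range of levels. In eye, 10 transcripts of 200 bases or more, from 8 genes, matched Old World monkey, ape or human entries. They lay between 2.62 and 87.2 RPKM, with a median of 13.0, and the longest had 3682 bases. In retina, 9 such transcripts from 7 genes lay between 0.302 and 0.746 RPKM. Transcripts of that length matched to other entries had a median of 738 RPKM in eye (25 transcripts) and 634 in retina (32 transcripts). The levels overlapped, since 2 of those 25 and 6 of those 32 also lay under 100 RPKM, the eye ones at 0.938 and 3.40. All 7 eye transcripts of 1000 bases or more matched monkey, ape or human entries, against 0 of 2 in retina. With the best-matching transcript in place of the highest, 8 of 12 eye members and 4 of 12 retina members were taken from such entries, and the median difference was -2.60. Without those entries it was 0.41, with 9 of 12 above 0, although MT-CO3 then stood at -9.90. The origin of these transcripts was not tested.

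Low best-matching transcripts were also seen among nuclear-encoded members. In eye, 12 of 85 names had a best-matching transcript at least 4-fold below the highest one, and 11 of these 12 matched Old World monkey, ape or human entries. In retina this held for 0 of 83 names. Over all proteins it held for 284 names in eye, 218 of them matched to such entries, and for 266 in retina, 186 of them so matched. Among names with several transcripts this was 16.0% of the members and 3.39% of all proteins in eye, and 2.91% of all proteins in retina. COX8A stood at 357 RPKM on its highest eye transcript, of 516 bases, and at 1.74 RPKM on its best-matching one, of 445 bases, with a similarity of 97% and 100% to the entry. UQCR11 stood at 158 and 1.02 RPKM, NDUFA11 at 232 and 2.26, and ATP5MF at 449 and 1.25. COX8B, with 1 transcript per tissue, could not be among the 12. How often the best matches of the other names fell on monkey, ape or human entries was not counted, so 11 of 12 has no such share beside it. The count of 12 was made after the values had been seen, and its cause was not tested.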

How the data were processed

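For each tissue the authors deposited 2 tables, per the file headers: one lists transcripts with a length and an expression value, the other their Swiss-Prot hits with a score, an E-value and other alignment columns. Bowtie is named without a version, per the submitters' processing notes. Which assembler and counting were used is not given in the sources used here. RPKM as the unit was inferred from the deposited values: value times length was a whole multiple of 1 constant, within 0.01 reads, for 100% of transcripts in both tables. Recovered reads summed to 19.2 times the total in eye and 10.5 times in retina, so a read may be counted on several transcripts, and this was not tested. The libraries of a tissue share 1 column, so no test was run.

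Tables were joined by Swiss-Prot name. Levels are the highest transcript's RPKM, with a pseudocount of 1 and a filter at 1 RPKM in either tissue. Counting intervals (95%) treat recovered reads as independent Poisson counts. Gene symbols were assigned to Swiss-Prot names, and 81 of 84 nuclear symbols occur in RefSeq gene names (assembly mIctTri1.hap1), used for names only (not found were COX8B, NDUFA4 and NDUFA4L2). Tissue tables were assembled and normalized separately. The members and lists were chosen with earlier results of these data known. Named genes were all mitochondrially encoded members, both members of each isoform pair, the 4 highest nuclear-encoded members of each complex, the 5 largest differences in each direction and members at 10 RPKM or more in 1 table only. Other names are members of a count or examples of their group and were chosen after their values were seen. The design wrote the entry of COX4I2 under another name than the files use, and 3 photoreceptor marker names do not occur in the files, so those markers have no value. Values of some single members are not reported here.

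Alternatives were another transcript per protein (best match, sum, length-weighted mean, 200 bases or more), E-values at or below 1e-20, mammalian entries only, filters, pseudocounts and scalings. RPM (reads scaled to the total, not divided by length), the median over transcripts, best matches without monkey, ape and human entries, and lengths within 1.5-fold were chosen after seeing the data. The functions were tested on simulated data. Python 3.11.15, pandas 2.3.3, numpy 2.4.6, scipy 1.17.1 and matplotlib 3.10.9 were used.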

Additional observations from a re-analysis of the deposited data

Results flagged for a closer look

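A signal outside the main measurement was seen on mitochondrially encoded transcripts of 200 bases or more whose best hit was an Old World monkey, ape or human entry, which the levels of the highest transcripts do not use. In eye they held 121483 reads, 84841 of them on the longest transcript, of 3682 bases, assigned to MT-CYB. In retina they held 636 reads. The study has no control samples to set beside these numbers. The recovered reads of all transcripts sum to 19.2 times the read total in eye and 10.5 times in retina, so these numbers are not counts of separate molecules.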

How the results depend on the processing

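With the best-matching transcript, the nuclear-encoded median was 0.071 and the mitochondrially encoded one -2.60, and 20 members were at least 2-fold higher in retina (beside 3.17% of all proteins). With monkey, ape and human entries of mitochondrially encoded transcripts left out as well, these were 0.071, 0.41 and 15 (beside 3.14%). On that choice 9 members were at least 2-fold higher in eye (beside 11.7%), and MT-CO3 stood at -9.90. Under both best-match choices ATP5MF (-5.86), COX6A1 (-0.54), COX7A2 (-3.22) and SDHB (-0.036), all at least 2-fold higher in eye by the highest transcript, turned toward retina. Members within 2-fold also turned, among them COX8A to -6.21, UQCR11 to -5.71, NDUFA11 to -5.23, ATP5PO to -4.46, COX4I1 to -2.71, UQCRH to -0.74 and NDUFB8 to -0.43. Under the same choices the log2 ratio of COX8B to COX8A in eye was 4.07, and the ratio of isoforms was at least 2-fold higher in eye for 5 pairs, with 0 such pairs in retina. Rescaling to equal totals gave medians of -0.030 and 0.19, with 9 members higher in eye and 3 in retina. The length-weighted mean gave 0.20 and 0.45, 2 members higher in retina (beside 2.05%) and 0 pairs higher in retina. The median over transcripts gave a nuclear-encoded median of 0.077, 9 members higher in eye (beside 12.5%) and 8 in retina (beside 3.68%). It gave 0 pairs higher in retina, with ATP5MF at -1.37 and COX7A2 at -0.38. Sums over transcripts gave a mitochondrially encoded median of 0.79, 25 members higher in eye and 17 in retina (beside 16.8% and 19.3% of all proteins), with ATP5MF at -0.26 and COX6A1 at -1.03. RPM gave a mitochondrially encoded median of 0.54, 6 members higher in retina (beside 9.47%) and 1 pair higher in retina, with COX7A2 at -0.17 and NDUFB6 at -0.093. E-values at or below 1e-20 gave a mitochondrially encoded median of 0.42 and 0 members higher in retina (beside 3.23%), since ATP5F1E then had no compared value. Mammalian entries only gave a mitochondrially encoded median of 0.44, and transcripts of 200 bases or more gave 0.21, with 3 members higher in retina (beside 3.54%). Limiting lengths to within 1.5-fold left 5 members higher in eye, by construction among fewer members. Where not stated, the cause was not tested. The COX8B difference stayed between 2.68 and 6.03 under the 16 alternatives run. Those that choose among or combine transcripts could not move it, since each tissue had 1 COX8B transcript. No paired analysis was possible because the tables hold 1 pooled value per tissue, although eye and retina libraries share replicate numbers, and for the same reason no library could be left out. Depth limited little at these levels, the widest counting half-width being 0.12, whereas separate assemblies and reads that may be counted on several transcripts limit every comparison.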

Other observations

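Related genes of oxidative phosphorylation outside the naming rule were close in the 2 tissues. Of 46 listed, 44 were in both tables, 26 with the higher value in eye and 18 in retina, with a median difference of 0.030 and of -0.22 after rescaling to equal totals. At least 2-fold higher were 5 of the 44 in eye, beside 11.8% of all proteins, and 2 in retina, beside 3.6%. Cytochrome c (CYC), which carries electrons from complex III to complex IV, stood at 161 RPKM in eye against 75.5 in retina, from transcripts of 507 and 1776 bases. The ADP/ATP carriers ADT1, ADT2 and ADT3 stood at 369 and 324, 292 and 218, and 558 and 343 RPKM. The phosphate carrier MPCP stood at 446 and 293, and UCP2, an uncoupling protein, at 32.7 and 13.3. Of 8 such exchange proteins 6 had the higher value in eye.

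The citrate cycle was even, with 6 of 11 names higher in eye and 5 in retina and a median of 0.024 (-0.25 after rescaling). Citrate synthase (CISY) stood at 70.6 and 71.4 RPKM, and malate dehydrogenase (MDHM) at 255 and 235. SUCA, a subunit of succinyl-CoA ligase, was the 1 name of this list past 2-fold, at 79.0 and 25.2 RPKM, from transcripts of 1219 and 3554 bases. Among assembly factors, SURF1 of complex IV stood at 213 and 39.4 RPKM, and BCS1, which inserts the Rieske protein into complex III, at 7.03 and 78.0, from transcripts of 1664 and 781 bases. Among 7 regulators, the receptor ERR1 stood at 29.1 and 10.9 RPKM, the coactivator PRGC1 at 5.29 and 11.5, and the mitochondrial RNA polymerase RPOM at 9.11 and 20.3, from transcripts of 3773 and 629 bases. The transcription factor TFAM, which packs mitochondrial DNA, was at 4.89 and 4.75 RPKM.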
